A study of Rattus norvegicus with 8 samples.

Results

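The 28 genes described here encode proteins of phototransduction and of photoreceptor structure, and were named one by one as rat gene symbols. Each was found on the arrays through gene probes whose RefSeq transcript belongs to that symbol, which placed all 28 of 28, among 16581 genes with a symbol and 45598 gene probes. Of the 28, 7 were assigned to rods (Gnat1, Gnb1, Gngt1, Pde6b, Cnga1, Cngb1 and Sag) and 4 to cones (Opn1sw, Gngt2, Cngb3 and Arr3). The other 17 are shared by both cell types or not assigned to one. Among the rod genes, Gnb1 encodes a subunit of rod transducin that most cells express.

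RNA came from retinas of Lister hooded rats, taken at postnatal day 0 and electroporated in vitro with 5 square pulses of 25 V and 50 ms. The Klf4 group (4 arrays) received a plasmid that encodes Klf4, a Krüppel-like transcription factor with zinc fingers, and the control group (4 arrays) a control plasmid. After 39 hours in culture the tissue of both groups was dissociated, and RNA was taken from the cells that a sorter found positive for GFP, the mark of transfection. The promoter of the plasmids, the species of the Klf4 insert and the number of retinas behind an array are not given in the sources used here. The sort selects transfected cells and not a cell type. Whether arrays 2 to 5 of a group stand for different animals, or for different electroporations of pooled tissue, is not in the labels, so the spread behind each p-value is that between these samples and may be technical.

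In the dark, cyclic GMP keeps cation channels of the photoreceptor outer segment open. Light absorbed by an opsin activates the G protein transducin, transducin activates a phosphodiesterase that hydrolyses cyclic GMP, and the channels close. Arrestins end the activity of the opsin, and calcium-binding proteins restore cyclic GMP. Cones are born before birth in rodents, whereas many rods are born in the first days after it, and their outer segments form later.

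Signals are given as normalised log2 signal, the log2 intensity of a probe minus the 75th percentile of the gene probes of the same array, so that 0 stands for a probe at that percentile. Levels of different probes do not rank their genes by amount of RNA. Summed signals and median levels over several genes, given below, depend on the brightness of the probes they hold. A change is the Klf4 mean minus the control mean of these values, and it was called where limma's adjusted p, over all 34738 probes tested, was under 0.05. Values by array are given in the order of replicates 2, 3, 4 and 5. The 75th percentile itself lay at intensities of 2399 to 5370, between 72.1% and 86.5% of gene spots per array were well above background, and no spot was saturated. Both arrays numbered 5 belong to a second scan and the other 6 to the first, and the scanner software placed array 4 of either group outside its limits of quality. All Klf4 arrays lay in columns 2 and 4 of the slide and all control arrays in columns 1 and 3, so slide column and group cannot be told apart. The array's Klf4 probe read between -3.70 and -1.74 in the Klf4 group and between -3.87 and -2.45 in the control group (log2 change 0.27, SE 0.46, limma adjusted p = 0.903). The sources used here do not place that probe relative to the insert of the plasmid, so its level is no check of the labels.

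Of the 28 genes, 2 were lower with Klf4, Cngb3 and Rbp3, which is 7.14% of the genes, where 0.501% of all probes tested were called lower. The list was chosen with earlier results of these data known, so these shares are a description and no test of the list. None was higher, where 3.13% of all probes were, and 26 did not pass. A further 5 of the 28 had an unadjusted p under 0.05 and no call (Gngt2, Kcnv2, Gnat1, Tulp1 and Prph2), all with negative changes. Over all probes, an unadjusted p under 0.05 without a call was found for 8.36%, counted in either direction. The change was below 0 for 24 of the 28 (85.7%), against 61.8% of all probes, with a median of -0.38 (range -1.27 to 0.23) against -0.07 over all probes tested. Without Klf4 replicate 5 it was below 0 for 16 of the 28, with a median of -0.13, and without control replicate 4 the median was -0.19; in the first scan alone, without either array numbered 5, 24 were below 0 with a median of -0.30. Every Klf4 array was below every control array for 2 genes, where this held for 4.70% of all probes, and every Klf4 array was above for 0, against 5.60%. In sorted cells of mixed type, fewer cells of a type and less RNA per cell cannot be told apart.

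**Figure D1:**
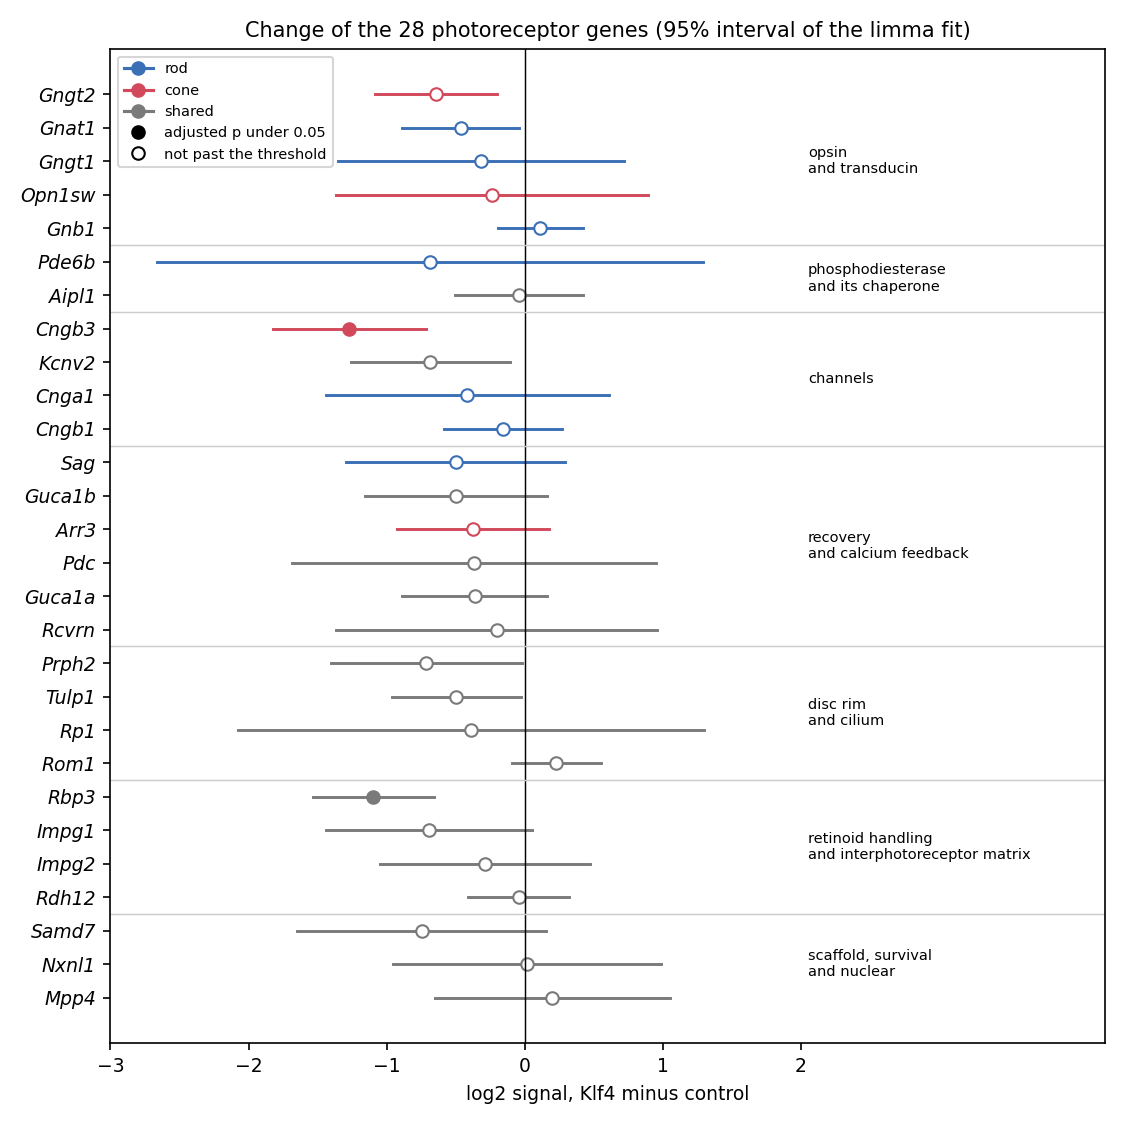
Change of each of the 28 genes with Klf4 (log2 signal, Klf4 minus control, 4 arrays each) on the x axis, with genes on the y axis grouped by the role of the protein; bars are 95% intervals of the limma fit, colours mark rod, cone and shared genes, and filled points passed an adjusted p of 0.05. Points lie left of 0 for 24 genes, and the 2 filled ones are Cngb3 at -1.27 and Rbp3 at -1.10.

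Cngb3 encodes the beta subunit of the cyclic GMP-gated channel of cones. It read -0.87, -0.39, 0.29 and -0.70 on the Klf4 arrays, against 0.97, 0.75, 0.89 and 0.80 on the control arrays. The control values lay close together (0.85 ± 0.10, SD, n = 4), the Klf4 values were spread more widely (-0.42 ± 0.51), and the groups did not overlap. Cngb3 fell by 1.27 on the log2 scale, 2.41-fold (SE 0.24, limma adjusted p = 0.0246). A second probe of the gene read -2.29, -2.19, -1.23 and -2.64 on the Klf4 arrays and -0.88, -0.86, -0.57 and -0.96 on the control arrays. Its change was also -1.27 (SE 0.28, limma adjusted p = 0.0496), and again no Klf4 array reached a control array. By scan, the change was -1.19 (first) and -1.51 (second). Its call depended on the arrays used: it no longer passed with the 6 arrays of the first scan (adjusted p = 0.146) or without any single array other than Klf4 replicate 4 (0.0583 to 0.0915). Without Klf4 replicate 4, the highest of the Klf4 values, the change was -1.51 (adjusted p = 0.00126).

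Rbp3 encodes the interphotoreceptor retinoid-binding protein, which carries retinoids in the matrix between photoreceptors and pigment epithelium. It read 2.03, 1.86, 1.90 and 1.39 on the Klf4 arrays (1.79 ± 0.28, SD, n = 4), against 3.14, 2.91, 2.98 and 2.53 on the control arrays (2.89 ± 0.26). The groups did not overlap, and array 5 was the lowest of both. Rbp3 fell by 1.10 on the log2 scale, 2.14-fold (SE 0.19, limma adjusted p = 0.0156), and by scan the change was -1.08 (first) and -1.14 (second). It also passed within the 6 arrays of the first scan (adjusted p = 0.0134) and with scan as a block (0.00146). The call was lost without control replicate 2 (0.0619), 3 (0.0564) or 4 (0.0632) and without both arrays numbered 4 (0.0707).

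The 250 bases before and 50 bases after the start of 4 of the genes are shown for what the data bear on: those of the 3 genes with the smallest p among the genes with an entry (Rbp3, Kcnv2 and Tulp1), and that of Aipl1, picked after its values were seen as a gene with almost no change. They are RefSeq promoter windows of build GRCr8, 5′ to 3′ in the direction of the gene, and 23 of the 28 genes had one. Capitals mark matches, on either strand, to TAATCC (the core bound by Crx, the homeobox factor of photoreceptors), TGCTGA (a half-site of Nrl, the rod factor) and CACCC (the core bound by Krüppel-like factors). In the 4 windows no match overlaps another.
Rbp3 (chr16:9273537-9273836, plus strand): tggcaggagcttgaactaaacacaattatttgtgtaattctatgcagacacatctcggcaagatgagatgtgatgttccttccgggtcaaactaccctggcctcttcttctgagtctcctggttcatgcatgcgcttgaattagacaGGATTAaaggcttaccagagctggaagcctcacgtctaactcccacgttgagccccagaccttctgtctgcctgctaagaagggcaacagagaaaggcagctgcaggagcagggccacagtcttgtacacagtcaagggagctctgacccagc
Kcnv2 (chr1:234412924-234413223, plus strand): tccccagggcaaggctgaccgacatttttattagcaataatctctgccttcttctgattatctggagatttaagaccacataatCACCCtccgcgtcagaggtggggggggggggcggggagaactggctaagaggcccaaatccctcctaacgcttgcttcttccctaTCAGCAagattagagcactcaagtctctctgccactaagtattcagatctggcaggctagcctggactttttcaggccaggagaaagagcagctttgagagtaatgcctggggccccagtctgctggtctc
Tulp1 (chr20:6425784-6426083, minus strand): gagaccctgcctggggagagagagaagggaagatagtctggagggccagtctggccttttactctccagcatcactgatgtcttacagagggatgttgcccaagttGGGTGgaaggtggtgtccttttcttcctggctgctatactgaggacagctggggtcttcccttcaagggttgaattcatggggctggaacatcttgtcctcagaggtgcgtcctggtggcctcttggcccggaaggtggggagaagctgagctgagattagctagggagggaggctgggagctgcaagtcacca
Aipl1 (chr10:57163406-57163705, minus strand): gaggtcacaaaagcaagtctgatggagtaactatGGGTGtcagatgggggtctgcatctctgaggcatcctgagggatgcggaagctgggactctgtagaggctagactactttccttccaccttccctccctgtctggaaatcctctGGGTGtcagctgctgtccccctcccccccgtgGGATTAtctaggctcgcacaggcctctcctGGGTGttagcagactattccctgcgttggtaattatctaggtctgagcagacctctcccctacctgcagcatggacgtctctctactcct
The Rbp3 window holds TAATCC at position -103, on the strand opposite to the gene, and neither other motif. Positions are counted from the gene's start to the first base of the match as printed. The Kcnv2 window has CACCC at -166 and, on the strand opposite to the gene, TGCTGA at -81. In the Tulp1 window 1 CACCC lies at -144, also on the strand opposite to the gene. The window of Aipl1 carries TAATCC at -70 and CACCC at -216, -102 and -40, all on the strand opposite to the gene. TAATCC was present in 8 of the 23 windows (34.8%), among them those of Rbp3, Prph2, Opn1sw and Aipl1, against 7.17% of 33469 promoter windows of the same length. TGCTGA was present in 9 (39.1%), against 18.4% of all windows, and CACCC in 15 (65.2%), against 54.9%. A match is a run of letters and not a measured binding site.

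Among the opsin and transducin genes, 0 of 5 passed and 4 of 5 changes were below 0 (median -0.32). Gngt2, the gamma subunit of cone transducin, read 4.34, 4.55, 5.07 and 4.23 on the Klf4 arrays, against 5.21, 5.04, 5.28 and 5.23 on the control arrays. Klf4 replicate 4 alone reached into the control range, and the change was -0.64 (SE 0.19, limma adjusted p = 0.158). A second probe of Gngt2 changed by -0.63 (adjusted p = 0.230). Without Klf4 replicate 4 the change of the first was -0.81 and passed (adjusted p = 0.0088), and it passed without both arrays numbered 4 (0.0383) and with arrays weighted by their fit (0.00309). The second scan gave -0.99 and the first -0.52. Gnat1, the alpha subunit of rod transducin, read -0.34, -0.58, -0.77 and -0.98 on the Klf4 arrays and 0.01, -0.09, -0.19 and -0.54 on the control arrays. Only control replicate 5 lay within the Klf4 range, and the change was -0.46 (SE 0.18, limma adjusted p = 0.344). Opn1sw, the short-wavelength opsin of cones, read 0.36, 0.66, 1.37 and -0.73 on the Klf4 arrays, against 0.07, 0.96, 1.58 and 0.01 on the control arrays. Its groups overlapped over most of their range (change -0.24, SE 0.50, limma adjusted p = 0.928). Gngt1, the gamma subunit of rod transducin, likewise overlapped (-0.32, SE 0.45, adjusted p = 0.874). Gnb1, a beta subunit of rod transducin that most cells express, read 3.05, 2.99, 2.77 and 2.76 with Klf4 and 2.86, 2.84, 2.84 and 2.58 in controls, a change of 0.11 (SE 0.13, limma adjusted p = 0.837). Its other probes changed by 0.54 (adjusted p = 0.245) and 0.21 (0.689).

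Pde6b, a catalytic subunit of the rod phosphodiesterase, had the widest interval of the 28 genes. It read -1.65, -1.55, -0.63 and -4.43 on the Klf4 arrays and -1.29, -0.76, -0.35 and -3.12 on the control arrays, so that replicate 5 stood far below the others in both groups. The change was -0.68 with a 95% interval of -2.66 to 1.29 (limma adjusted p = 0.850). Aipl1, a chaperone that photoreceptors need to assemble this enzyme, read 4.71, 4.45, 5.23 and 4.45 with Klf4 and 4.88, 4.65, 4.94 and 4.54 in controls. Its change was -0.04, with a 95% interval of -0.50 to 0.42 (adjusted p = 0.974).

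The other 3 channel genes did not pass, and all 4 had changes below 0 (median -0.55). Kcnv2, a modulatory subunit of voltage-gated potassium channels in rods and cones, read 0.51, 0.71, 0.94 and -0.21 on the Klf4 arrays, against 1.20, 1.26, 1.38 and 0.84 on the control arrays. Within the first scan the groups were apart, and control replicate 5 lay below Klf4 replicate 4. The change was -0.68 (SE 0.25, limma adjusted p = 0.289), or by scan -0.56 (first) and -1.05 (second), and it passed when scan was a block (adjusted p = 0.0454). Cnga1 and Cngb1, the alpha and beta subunits of the rod cyclic GMP-gated channel, changed by -0.42 (SE 0.45, adjusted p = 0.814) and -0.16 (SE 0.19, adjusted p = 0.839), with a second Cngb1 probe at -0.46 and a 95% interval of -1.91 to 0.99 that spans the interval of its cone counterpart Cngb3 (-1.82 to -0.71). The difference between the changes of Cngb1 and Cngb3 was not tested.

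None of the 6 genes of recovery and calcium feedback passed, and all 6 changes were below 0 (median -0.37, range -0.50 to -0.20). Sag, the arrestin of rods, changed by -0.50 (SE 0.35, adjusted p = 0.685), and Arr3, that of cones, by -0.37 (SE 0.24, adjusted p = 0.651). Guca1a and Guca1b encode proteins that activate guanylate cyclase when calcium is low and are neighbouring protein-coding genes. They changed by -0.36 (SE 0.23, adjusted p = 0.641) and -0.50 (SE 0.29, adjusted p = 0.599), and Guca1b passed with array weights (0.0204). Pdc, phosducin, which binds the beta and gamma subunits of transducin, read -0.36, -0.12, 0.79 and -1.85 on the Klf4 arrays and -0.08, 0.43, 0.68 and -1.12 on the control arrays (change -0.37, SE 0.58, adjusted p = 0.891). Rcvrn, recoverin, a calcium sensor of photoreceptors, read 0.59, 0.72, 1.51 and -0.61 with Klf4 and 0.60, 1.15, 1.57 and -0.31 in controls (change -0.20, SE 0.51, adjusted p = 0.944). For Pdc and Rcvrn the distance between arrays of one group was several times the change.

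The 4 genes of disc rim and cilium gave 0 calls, and their changes differed in sign. Prph2, peripherin 2, a tetraspanin that shapes the disc rim, read 0.50, 0.41, 0.46 and -0.50 with Klf4 and 0.80, 1.09, 1.48 and 0.35 in controls. Every Klf4 array was below 3 of the controls, and control replicate 5 lay among the Klf4 values (change -0.71, SE 0.30, limma adjusted p = 0.396). Rom1, the related rim protein that pairs with it, read 1.92, 1.72, 1.53 and 1.73 on the Klf4 arrays and 1.53, 1.25, 1.62 and 1.58 on the control arrays. Its change of 0.23 was the highest of the 28 and did not pass (SE 0.14, limma adjusted p = 0.629). Tulp1, a protein of transport to the outer segment, read -0.78, -1.07, -1.59 and -1.32 with Klf4 and -0.87, -0.70, -0.36 and -0.84 in controls. Klf4 replicate 2 lay within the control range, and the change was -0.50 (SE 0.20, limma adjusted p = 0.369). Rp1, a microtubule protein of the photoreceptor axoneme, read -1.08, -0.81, 0.31 and -2.98 with Klf4 and -0.79, -0.16, 0.21 and -2.25 in controls (change -0.39, SE 0.74, adjusted p = 0.916).

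Of the retinoid and matrix genes other than Rbp3, Rdh12, a retinol dehydrogenase of photoreceptors, changed by -0.04 (SE 0.16, adjusted p = 0.968). Impg1 and Impg2, proteoglycans of the interphotoreceptor matrix, changed by -0.69 (SE 0.33, adjusted p = 0.469; second probe -0.78) and -0.29 (SE 0.33, adjusted p = 0.827). Mpp4, a membrane-associated scaffold protein of photoreceptor synapses, read -1.91, -1.69, -0.83 and -2.13 with Klf4 and -2.10, -1.41, -1.24 and -2.61 in controls. Its change was 0.20 (SE 0.37, adjusted p = 0.915), and a second probe changed by -0.08, the only sign disagreement among the 6 genes with more than 1 kept probe. Nxnl1, which encodes the rod-derived cone viability factor, read -0.18, -0.46, -0.37 and -1.70 on the Klf4 arrays and -0.32, -0.41, -0.31 and -1.74 on the control arrays. The 2 groups nearly coincided, replicate 5 included (change 0.02, SE 0.43, adjusted p = 0.995). Samd7, a nuclear protein that in mouse acts with Polycomb repression in rods, changed by -0.75 (SE 0.39, adjusted p = 0.542). It was well above background on 2 Klf4 and 3 control arrays and entered the test through the controls alone. The other 27 were well above background on all 8 arrays.

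**Figure D2:**
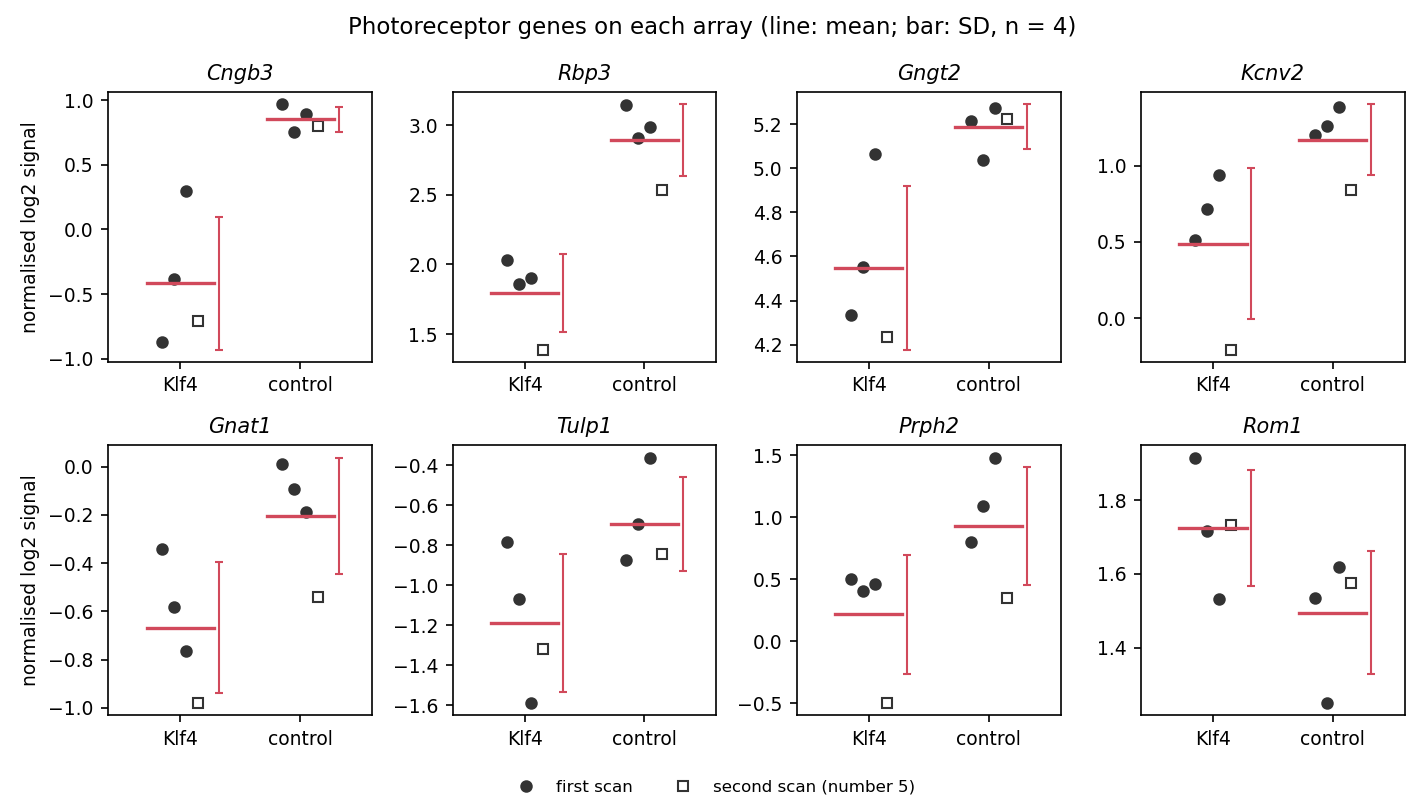
Normalised log2 signal (y axis) of the 7 genes with an unadjusted p under 0.05 and of Rom1 on each array, Klf4 left and control right; circles are the first scan, open squares the second (number 5), lines the group mean and bars the SD (n = 4). For Cngb3 the Klf4 points end at 0.29 and the control points begin at 0.75, whereas those of Prph2 and Kcnv2 overlap through the open squares.

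By cell type, 0 of 7 rod genes, 1 of 4 cone genes and 1 of 17 shared genes were called lower. The 7 rod genes include Gnb1, which most cells express and which alone among them changed above 0 (0.11). Median changes were -0.42 for rod genes, -0.51 for cone genes and -0.37 for shared genes, and a difference between these classes was not tested. The median level of the cone genes was -0.26, 0.14, 0.83 and -0.72 on the Klf4 arrays and 0.52, 0.85, 1.24 and 0.40 on the control arrays. For the rod genes it was -1.65, -1.55, -0.77 and -2.03 with Klf4 and -1.29, -0.76, -0.35 and -1.63 in controls. In both classes replicate 4 was the highest and replicate 5 the lowest of each group.

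That order ran through the list. Array 5 gave the lowest value of both groups for 18 of the 28 genes (64.3%), against 20.4% of all probes tested, and array 4 the highest of both groups for 15, where 5.77% of all probes did so. For the further pathway genes described below, array 5 was the lowest of both groups for 14 of 43 (32.6%). It was so for 3 of 7 precursor factors, 4 of 6 microglial, 3 of 6 bipolar and 2 of 4 lens markers. The count was 2 of 11 for progenitor and Müller glia, 1 of 10 for amacrine and horizontal and 0 of 7 for ganglion markers. A lowest array 5 was thus not particular to the 28 genes. Array 5 minus the mean of the other 3 arrays was -3.15 in the Klf4 group and -2.32 in the control group for Pde6b. For Rp1 these differences were -2.45 and -2.0, for Pdc -1.95 and -1.46, and for Rcvrn -1.54 and -1.41. It was smaller for Rbp3, at -0.54 in the Klf4 group and -0.48 in the control group, for Cngb3, at -0.38 and -0.07, and for Gngt2, at -0.42 and 0.05. The median of this difference over the rod genes was -0.91 with Klf4 and -1.09 in controls, and over the cone genes -0.55 and -0.18. Over the 43 further pathway genes it was -0.21 with Klf4 and -0.18 in controls. The second scan held 1 array per group, so scan and array cannot be told apart.

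**Figure D3:**
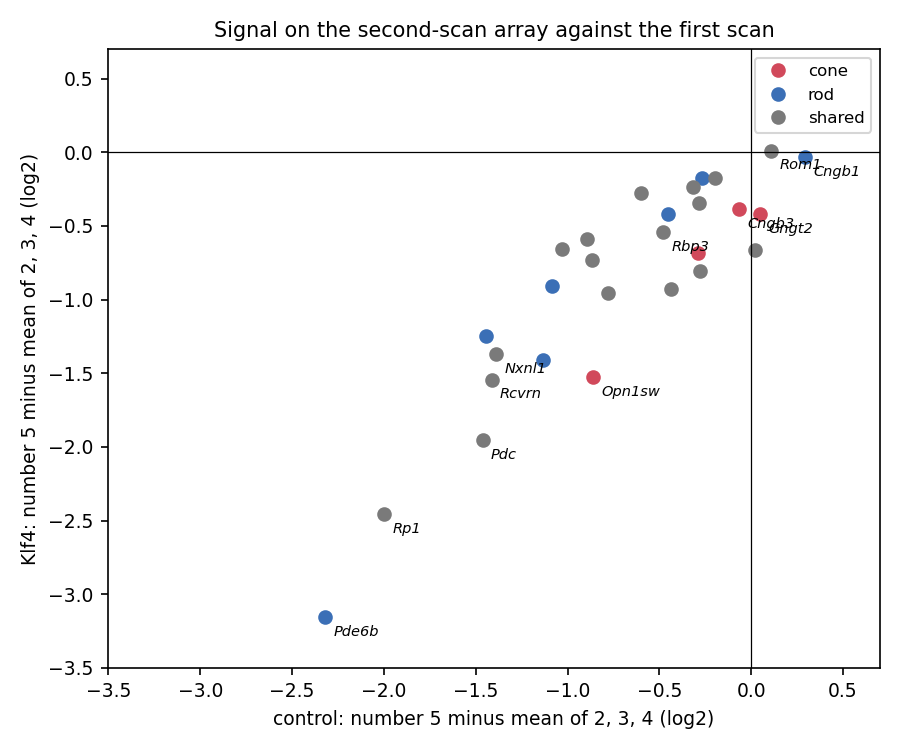
Signal on the array numbered 5 minus the mean of arrays 2, 3 and 4 (log2) for each of the 28 genes, in the Klf4 group on the y axis and in the control group on the x axis, with rod, cone and shared genes coloured. Pde6b lies lowest at -3.15 with Klf4 and -2.32 in controls, and Rom1 near 0 in both.

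Within the second scan (1 array each, no test) the median change of the 28 genes was -0.49, beside the -0.30 of the first (3 arrays each). The change was below 0 in both scans for 23 genes, against 38.1% of all probes. The median level of the 28 was -0.35, -0.42, -0.04 and -1.15 on the Klf4 arrays and -0.09, -0.08, 0.04 and -0.69 on the control arrays, and the ranges of the 2 groups overlapped. In the first scan alone 1 gene, Rbp3, passed, and with the scan as a block 3 did, Cngb3, Kcnv2 and Rbp3.

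**Figure D4:**
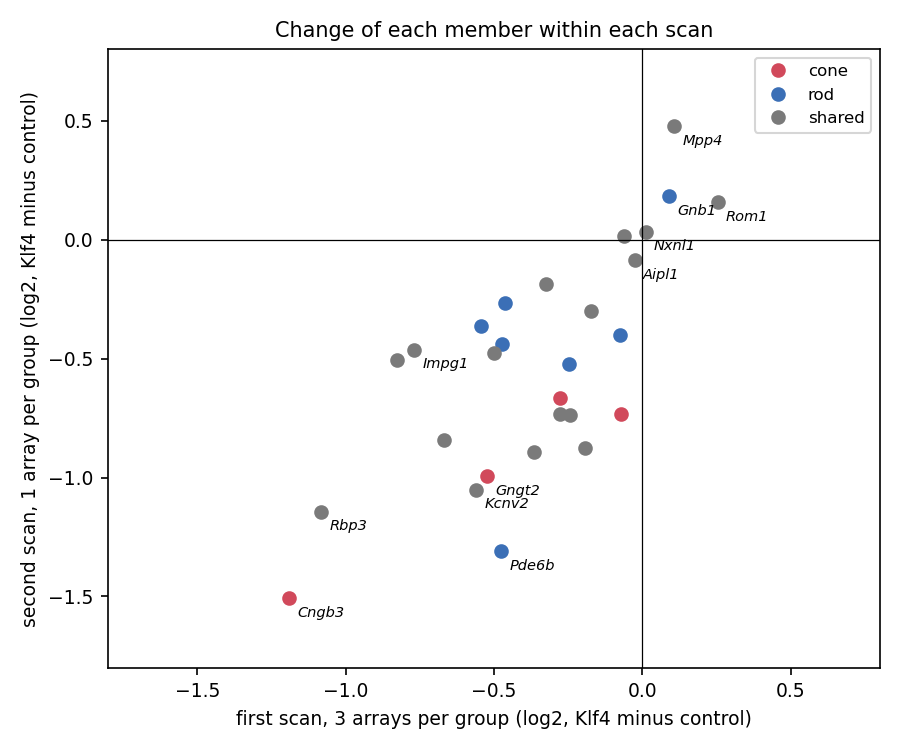
Change with Klf4 (log2) of each of the 28 genes in the first scan (x axis, 3 arrays each) and in the second scan (y axis, 1 array each), coloured by rod, cone and shared. Of the 28 points 23 lie below 0 on both axes, with Cngb3 at -1.19 and -1.51 and Rbp3 at -1.08 and -1.14.

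Of 57 further genes of the same pathway and organelle, 46 had a probe and 43 were kept. Of these 43, 3 fell (6.98%, against 0.501% of all probes tested), 0 rose and 40 did not pass. This list too was chosen with earlier results of these data known. Changes were below 0 for 34 (79.1%, against 61.8% of all probes), with a median of -0.26 (range -1.50 to 0.17), and all Klf4 arrays were below all control arrays for 7, which held for 4.70% of all probes. Gnb3, the beta subunit of cone transducin, read 2.50, 2.36, 2.54 and 2.15 on the Klf4 arrays, against 3.12, 3.05, 3.21 and 3.00 on the control arrays. The groups did not overlap (change -0.71, SE 0.13, limma adjusted p = 0.0224), and the call was lost in the first scan alone (0.0582), with the array median, with no filter, and without any of 6 single arrays (0.0598, 0.0501 and 0.0604 to 0.0983). Cacna2d4, an auxiliary calcium channel subunit of photoreceptor synapses, read -5.44, -5.24, -5.85 and -5.06 with Klf4 and -3.70, -4.11, -3.96 and -3.79 in controls. It fell by 1.50 (SE 0.19, adjusted p = 0.0032), with 1 of the 4 Klf4 arrays not well above background. With another background correction, normexp, the change was -0.66 and no longer passed (adjusted p = 0.112). Mak, a kinase of the photoreceptor cilium, read 1.37, 1.39, 1.73 and 1.50 with Klf4 and 2.29, 2.02, 2.26 and 2.12 in controls. It fell by 0.67 (SE 0.14, adjusted p = 0.0314), which no longer passed in the first scan alone (0.117), with the array median (0.107), with no filter (0.0672) or without any single array other than Klf4 replicate 4 (0.0576 to 0.129).

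Gnat2, the alpha subunit of cone transducin, was picked after its values were seen, because its beta and gamma partners Gnb3 and Gngt2 are described above. It read 4.19, 4.01, 4.77 and 4.21 on the Klf4 arrays, against 5.14, 5.00, 5.04 and 5.09 on the control arrays. The groups did not overlap, and the change of -0.77 just missed the threshold (SE 0.18, limma adjusted p = 0.0521). It passed with normexp, quantile normalization, the authors' values, array weights and the 75th percentile taken over spots. It also passed with probes well above background on all 8 arrays, without both arrays numbered 4 and without Klf4 replicate 4. The other alternatives gave no call, among them the first scan alone, scan as a block and any other single array left out. For all 3 subunits of cone transducin the Klf4 mean was thus below the control mean, by 0.77, 0.71 and 0.64, with 1 of 3 called.

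Transcription factors that mark photoreceptor precursors were detected in the sorted cells: 7 of 8 listed had a probe, all well above background on all 8 arrays (summed signal 6.90 to 7.93 with Klf4, 7.52 to 7.84 in controls), and Nr2e3 had no matched probe. Crx fell by 0.84 (SE 0.18, limma adjusted p = 0.0386) with no overlap between groups, a call that ended within the first scan (0.0778) and without any single array other than Klf4 replicate 4 or 5 (0.0569 to 0.135), and Rxrg (-0.69, 0.0506), Nrl (-0.99, 0.0887), Thrb (-0.57, 0.106), Otx2 (-0.44, 0.518), Prdm1 (-0.29, 0.757) and Neurod1 (-0.27, 0.768) did not pass, nor did Esrrb, an orphan receptor outside that list (0.05, 0.986).

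Markers of other retinal cells moved with the groups to different degrees. For the counts that follow, 3.13% of all probes tested were called higher and 0.501% lower. Ganglion cell markers included 3 genes that rose, Stmn2, Nefm and Gap43, of 7 kept of 11 listed (0 fell, median 0.94). The log2 of the summed signal of the 7 kept was 3.01 to 4.11 on the Klf4 arrays and 0.99 to 1.81 on the control arrays. On the Klf4 arrays most of that sum came from the Stmn2 probe (2.37 to 3.73, against -1.23 to 0.51 in controls). Thy1, Sncg and Nefl were well above background on at most 2 arrays of a group. Pou4f2 (-0.25), Isl1 (0.12), Rbpms (0.94) and Elavl4 (-0.13), well above background on all 8 arrays, did not pass. Of 11 kept progenitor and Müller glia markers 1 rose (Vim) and 0 fell (summed 6.91 to 7.29 with Klf4, 6.64 to 7.04 in controls). Of 10 amacrine and horizontal markers 1 rose (Ptf1a), and of 6 bipolar markers 1 fell (Lhx4), with summed signals of 7.01 to 7.31 and 4.52 to 4.87 with Klf4 and 6.98 to 7.42 and 4.75 to 4.97 in controls. S phase genes (9) and G2 and M phase genes (8) gave 0 calls, with all changes below 0, medians of -0.35 and -0.41, and summed signals of 5.12 to 5.77 and 4.22 to 5.36 with Klf4 against 5.54 to 6.46 and 4.67 to 5.89 in controls. Outside the neural retina, 1 of 6 microglial markers rose (C1qb, with a summed signal of 2.23 to 2.45 with Klf4 and 2.04 to 2.45 in controls). Of 4 endothelial markers 2 rose (Tek and Esam), and Cdh5 (-0.01, limma adjusted p = 0.991) and Kdr (0.03, 0.985) did not pass. The summed signal of the 4 was 6.45 to 7.28 with Klf4 and 6.56 to 6.83 in controls. Most of it came from the Kdr probe (6.43 to 7.27 and 6.55 to 6.83). Esam was well above background on 3 Klf4 and 0 control arrays and entered the test through the Klf4 arrays alone. Pigment epithelium gave 0 calls of 2 kept, whose changes were -1.45 and 0.115, and 1 of the 2 had an unadjusted p under 0.05. Tyr and Tyrp1 were well above background on 0 arrays. The summed signal of the 2 kept was 4.74 to 6.48 with Klf4 and 4.94 to 5.90 in controls. Lens gave 0 calls of 4 kept (-0.79 to -0.20 and -0.80 to 0.78), of which 1 had an unadjusted p under 0.05. Red blood cells gave 0 of 1, with Hbb well above background on 0 arrays (-2.52 to -2.26 and -2.43 to -2.33). With any 1 array left out, Stmn2, Nefm, Tek and Esam still passed, but Esam did not in the first scan alone (adjusted p = 0.0856), nor did Gap43, Lhx4, Ptf1a and Vim (0.0552 to 0.132). Each of the other marker calls was lost without some single arrays: Gap43 in 5 of 8 such fits, Lhx4 and Ptf1a in 7 each, C1qb in 4 and Vim in 3. The part of any of these in the changes of the photoreceptor genes was not tested.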

How the data were processed

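Retinal RNA of 4 Klf4 and 4 control samples was labelled with Cy3 and hybridised to single-colour Agilent arrays of 1 slide. Per the file headers, Feature Extraction 10.7.3.1 read the spot intensities. The deposited intensity values are background-subtracted by that software and not scaled between arrays, and the deposited flags of other kinds mark control spots, outlier spots and spots well above background. The authors also deposited a table of log2 values (45735 rows, every column median 7.54), and the sources used here do not give their method. It correlated best with its own array in each case (r 0.994 to 1.00) and served as an alternative; the scale is log2 with no centring of genes, and the direction that of the signals.

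Control spots and outlier spots (324 to 421 per array) were left out, the log2 signal of a probe was the mean over its spots, and the 75th percentile over the gene probes of an array was subtracted from it. Probes entered the tests if 3 or more of the 4 arrays in either group had them well above background (34738 probes), and the brightest of these by mean stood for its gene. Accessions without versions were matched to RefSeq genes of GRCr8. Of 45598 gene probes 21109 had 1 symbol, none had several and 24489 had none. The headers name another build, rn4, so only promoter windows carry coordinates, those of GRCr8.

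The comparison used lmFit and eBayes of limma 3.58.1 in R 4.3.3 (two-sided, no covariates), with Benjamini-Hochberg adjustment over all probes kept, and the code was tested on simulated data. Standard errors (SE) are those of the fit. The members and lists were chosen with earlier results of these data known. All 28 genes are named, and values on every array are given for those called, for those with an unadjusted p under 0.05, for those with changes opposite to the median, and for the one with the highest mean; values by array of Pde6b, Aipl1, Opn1sw, Pdc, Rcvrn and Rp1 were added after they were seen. In the other lists, pathway genes past the threshold are named, and 1 further gene of that rule is not reported here. Alternatives were normexp background correction (on median spot and background signals, offset 50), quantile and array-median scaling, the authors' values, other filters and probe rules, array weights, blocks for scan, slide row and replicate number, the first scan alone and leaving out arrays. The number of arrays limits the precision. Figures were drawn with matplotlib 3.10.9.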

Additional observations from a re-analysis of the deposited data

Results flagged for a closer look

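In 79 groups of 4 arrays (the 28 genes and the other named genes), 5 had 1 array far from the other 3 by Dixon's criterion, which chance gives in about 1 of 20 groups, and 3 of these 5 were on arrays numbered 5. Prph2 read -0.50 on Klf4 replicate 5, with the nearest Klf4 array at 0.41. Nxnl1 read -1.74 on control replicate 5, with the nearest control array at -0.41, and Gnb1 read 2.58 on the same array, with the nearest at 2.84. Crx read 0.89 on control replicate 3 (nearest control 1.22). Prdm1, a factor of photoreceptor fate, read 3.89 on Klf4 replicate 4 (nearest Klf4 array 3.02).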

How the results depend on the processing

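Over 23 alternatives none of the 28 genes was called higher, and the median of their changes stayed below 0 (-0.62 with array weights to -0.13 without Klf4 replicate 5). The number called lower, 2, was 5 with array weights (Cngb3, Gngt2, Guca1b, Kcnv2 and Rbp3), 1 in the first scan alone and 0 to 3 with 1 array left out, 0 without control replicate 2, 3 or 4. Without both arrays numbered 4 it was 2, Cngb3 and Gngt2. With the replicate block it was 1, Rbp3; Cngb3 (adjusted p = 0.0528), Mak (0.0586) and Crx (0.0632) lost their calls. Deviations of same-numbered arrays correlated with r of 0.35, 0.22, 0.07 and 0.56 for numbers 2 to 5; number 4 correlated more with another number (0.15), so the numbers were not taken as pairs. Crx was also lost with no filter (0.0742), the slide row as a block (0.0619) and without both arrays numbered 4 (0.102).

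The 3 pathway genes called lower became 6 with quantile normalization, the authors' deposited log2 values, and without both arrays numbered 4, 5 with probes well above background on all 8 arrays, 14 with array weights, 1 with the array median, no filter on dim probes and the first scan alone, 6 with the 75th percentile over spots (an alternative added after seeing the data, as was 1 probe per gene), and 1 to 8 with 1 array left out. Over all probes, 174 lower and 1086 higher, array weights gave 1366 and 2098, the scan as a block 294 and 1269, the first scan alone 63 and 707, no filter 89 and 866, quantile normalization 282 and 1079, and leaving out 1 array 40 to 488 and 689 to 1435.

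Of 917 results of named genes under an alternative, 810 kept direction and side of the threshold, 45 lost and 25 gained a call, and 37 changed sign, all in genes without a call; the cause was not tested. With 1 array left out, the ranges that crossed 0 were -0.56 to 0.18 for Rcvrn, -1.27 to 0.10 for Pde6b, -0.60 to 0.035 for Gngt1, -0.22 to 0.047 for Aipl1, -0.89 to 0.22 for Rp1, -0.33 to 0.36 for Nxnl1, -0.14 to 0.026 for Rdh12, -0.071 to 0.40 for Mpp4, -0.76 to 0.12 for Pdc, -0.56 to 0.14 for Opn1sw, -0.30 to 0.31 for Esrrb and -0.15 to 0.54 for the Klf4 probe. Nxnl1 also turned with quantile normalization (-0.050), array weights (-0.090) and the 75th percentile over spots (-0.074), Rdh12 with array weights (0.031) and without both arrays numbered 4 (0.041), and Mpp4 with array weights (-0.28). Esrrb turned with normexp (-0.16), the authors' values (-0.76), array weights (-0.095), the first scan alone (-0.48), the slide row as a block (-0.025), the replicate block (-0.025) and the 75th percentile over spots (-0.026). Signal over background limits Samd7, Cacna2d4, Esam and Esrrb, which were not well above background on all arrays.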

Other observations

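Genes of the cell cycle differed between arrays in the direction opposite to the photoreceptor genes. On array 5 minus the mean of the other 3, the median of 9 S phase genes was 0.48 in the Klf4 group and 0.91 in the control group, and that of 8 G2 and M phase genes 0.53 and 1.0. Over the 28 photoreceptor genes the same difference was -0.67 with Klf4 and -0.54 in controls, and over all probes tested 0.03 and -0.0047. Array 5 was the lowest of both groups for 0 of the 17 cell cycle genes and for 18 of the 28 photoreceptor genes.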
